A study of Homo sapiens with 36 samples.

Results

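HCT116 cells derive from a colorectal carcinoma and grow as an established human line. The pyrimidine analogue 5-fluorouracil (5-FU) is a standard drug against that cancer. The libraries described here hold cytoplasmic RNA of HCT116 cells at day 7 (D7), set against cytoplasmic RNA of the same line at day 0 (D0). They were chosen by their labels, 3 libraries at D7 and 3 at D0 of the 36 libraries of the series, and all 15891 genes of the deposited table were compared. At D7 the cells had been exposed to 10 µM 5-FU for 48 h and then sampled days after that exposure. At D0 the cells had been plated 48 h earlier and had not yet met the drug. Both groups shared the steps of preparation: emetine before harvest, lysis of the cells, pelleting of nuclei and then of mitochondria, and poly(A) libraries made with a kit that marks the strand. Each group has 3 letters, A, B and C, which the labels give as batches. Nothing in the labels says that the letters were grown separately, so p-values measure a spread between libraries that may be technical. For the cytoplasm, p-values and standard errors use a spread pooled over its 18 libraries of 6 days. They do not measure the scatter of the D7 and D0 libraries alone. No untreated culture of a later day is among the samples, so drug and days in culture cannot be told apart. These are also bulk samples, in which a different mix of cells and a different amount of an RNA in each cell cannot be told apart.

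In cells, 5-FU is turned into a nucleotide that blocks thymidylate synthase and into others that are built into RNA and DNA. The lack of thymidylate stalls replication forks, and damage signals then stabilise p53, a transcription factor that induces the cell cycle inhibitor p21 (CDKN1A), its own antagonist MDM2 and genes of cell death. In cells with active p21, the DREAM complex and RB hold down the genes of DNA replication and mitosis through elements in their promoters, namely E2F sites and the cell cycle genes homology region (CHR).

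Epithelial markers were present in all D7 and D0 libraries. Of 22 colorectal epithelial markers 8 were listed in the table, among them EPCAM, at 13370, 11220 and 10840 normalized counts in D7 A, B and C, against 11960, 13380 and 11370 in D0 A, B and C. Of the markers of other lineages, 1 of 9 fibroblast markers, 3 of 14 leukocyte markers and 2 of 9 endothelial and erythroid markers were listed. The listed members of none of these 3 lists summed to more than 0.000724 percent of reads in any D7 or D0 library. Unlisted markers add nothing to these sums whatever their level at D7 or D0, so the sums cannot show that other lineages were absent. Of the 8 colorectal markers 5 were called higher at D7 and 1 lower, or 3 higher without D7 A or without D0 B. The 1 lower call, CDH1, was lost without D0 B, D0 C or D7 C. The table lists only genes with a value over 1 in every column, so genes that were silent at any day could not be compared. Over the listed genes depth was 41.96, 43.6 and 48.12 megareads in D7 A, B and C, against 46.66, 48.23 and 51.16 megareads in D0 A, B and C.

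Library D7 A stood apart from D7 B and D7 C. In the authors' scaling 1 of its reads is worth 2.07 normalized counts, against 1.21 in D7 B and 1.17 in D7 C. Around the mean of their group, log2 values had an SD over genes of 0.663 in D7 A, 0.436 in D7 B and 0.378 in D7 C. In D7 A, 135 genes had at most 10 reads while D7 B and D7 C both had at least 50 reads, and the same was true of 0 genes in D7 B or in D7 C. Genes with up to 2283 bases of exon had a median log2 value 0.63 higher in D7 A than in the mean of D7 B and D7 C, and genes with over 6865 bases of exon differed by -0.15. Genes for cytosolic ribosomal proteins took 23.3, 15.2 and 16.5 percent of the reads in D7 A, B and C, against 12.8, 11.7 and 10.8 percent in D0 A, B and C. Mitochondrially encoded genes took 9.29, 4.62 and 3.57 percent in D7 A, B and C, against 6.79, 6.00 and 5.05 percent in D0 A, B and C. The ribosomal protein share was thus higher in every D7 library, and the mitochondrial share was higher than at D0 in D7 A alone. The exact two-sided permutation test over the 6 libraries gave p = 0.1 for the ribosomal protein share, the smallest p that 3 against 3 allows, and p = 1 for the mitochondrial share. Letter A also stood apart at D2, with ribosomal protein shares of 17.9, 12.1 and 11.9 percent in D2 A, B and C. Mitochondrial shares there were 13.6, 11.5 and 8.36 percent. Across genes, the deviation of D7 A from its group mean correlated with that of D2 A (r = 0.49). For D1 A, D0 A, D16 A and D14 A r was 0.30, 0.25, 0.20 and 0.06. Many results that move with D7 A are given below with and without it. Others are given only with it, among them some gene differences and the list counts and gene differences against D2 and D14.

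**Figure D1:**
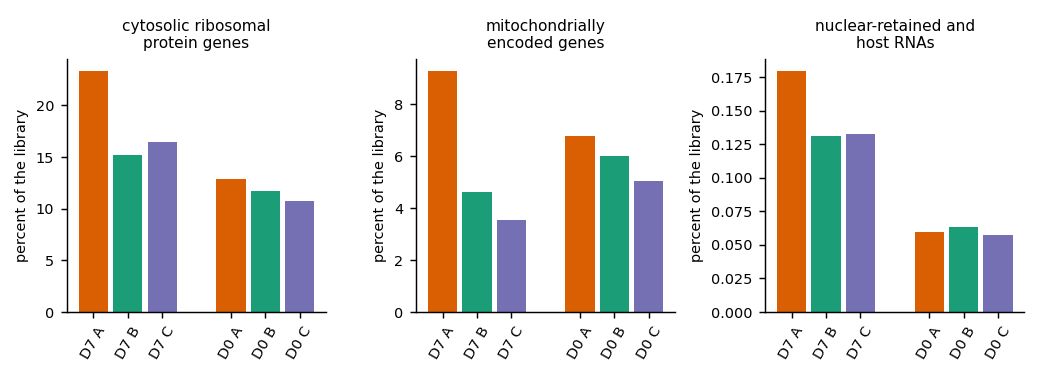
Percent of each library's reads in cytosolic ribosomal protein genes, mitochondrially encoded genes and a list of nuclear-retained and snoRNA host RNAs, in the 3 D7 libraries (left) and the 3 D0 libraries (right), colored by letter. D7 A holds 23.3 percent ribosomal protein reads and 9.29 percent mitochondrial reads, the highest of the 6 libraries in both.

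At D7, 5399 of 15891 genes (34 percent) were called against D0 at an adjusted p under 0.05 (limma on log2(value + 1), Benjamini-Hochberg), 2908 higher (18.3 percent) and 2491 lower (15.7 percent). Of these genes, 5372 differed in the same direction within all 3 letters. At least 2-fold changes among the called genes numbered 3482 (21.9 percent of all genes). Across all genes, 8845 (55.7 percent) had D7 values that did not overlap the D0 values. Without D7 A, 3445 genes (21.7 percent) were called, 1870 higher (11.8 percent) and 1575 lower (9.91 percent). Of the 5399 genes, 3194 kept their call and direction without D7 A and 0 were called in the opposite direction. The count also fell to 3574 without D0 B and to 3222 without D0 C. With the letters as a block, 6822 genes (42.9 percent) were called, 22.6 percent higher and 20.3 percent lower. Of the 110 called genes given by name, 86 kept their call and direction in all 20 alternatives to this test, and 22 lost it when letter C was left out of all days. Scaling each library to its total moved the median difference of all genes by -0.32 on the log2 scale, and the calls then split into 1891 higher and 3335 lower. The differences below are on the authors' scaling, on which the median gene differed by 0.01.

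**Figure D2:**
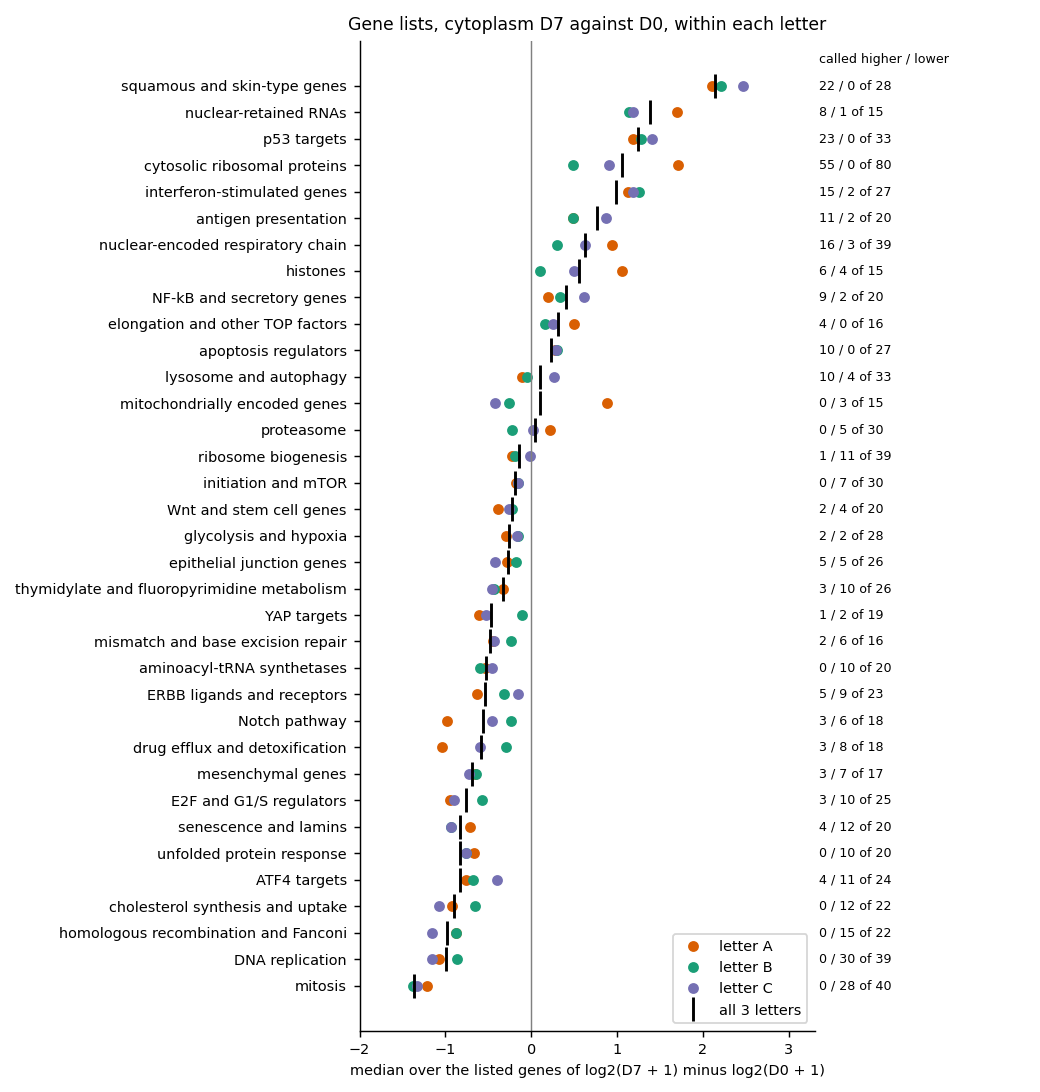
Median D7 minus D0 difference of log2(value + 1) in each gene list with at least 10 listed genes, within letters A, B and C (circles) and over all 3 (bars), with the number of genes called higher and lower at the right. Skin-type, nuclear-retained, p53 and interferon lists lie above 0 and mitosis, replication and recombination lists below 0 in all 3 letters, and ribosomal protein genes spread from 0.48 in letter B to 1.71 in letter A.

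Targets of p53 were higher at D7. Of 33 listed p53 targets, 23 were called higher and 0 lower, with a median log2 difference of 1.24, against 18.3 percent of all genes called higher. CDKN1A, which encodes the inhibitor p21 of cyclin-dependent kinases (chromosome 6, 36676460 to 36687339, GRCh38), had 46910, 68940 and 82610 normalized counts in D7 A, B and C, against 7009, 6583 and 7739 in D0 A, B and C. Every D7 library lay above every D0 library, and the mean difference was 3.18 ± 0.23 on the log2 scale (SE, n = 3 each, limma adjusted p = 4.29e-08). TP53I3, an oxidoreductase gene used as a p53 reporter, had 8406, 6606 and 8547 at D7, against 807, 712 and 559 at D0, a difference of 3.51 ± 0.20 (limma adjusted p = 3.1e-09). TP53INP1, whose product acts in stress signalling and autophagy, had 2169, 2185 and 2310 at D7, against 244, 267 and 269.6 at D0, and so rose 8.51-fold. MDM2, the ubiquitin ligase that degrades p53, had 8352, 8285 and 7928 at D7, against 2301, 2927 and 3107 at D0. The 3 D7 values were nearly equal and lay above all D0 values (1.57 ± 0.31, limma adjusted p = 0.00132). GDF15, a secreted stress cytokine, rose by 2.00 ± 0.18, and BBC3, which encodes the cell death activator PUMA, by 2.27 ± 0.21 on the log2 scale. The ribosomal protein paralog RPS27L, a direct p53 target, had 28660, 10950 and 12430 at D7, against 3095, 3054 and 2299 at D0, with D7 A well above the other 2 D7 libraries. The p53 targets took 0.25, 0.413 and 0.442 percent of reads in D7 A, B and C, against 0.125, 0.129 and 0.132 percent in D0 A, B and C. Without D7 A, 24 members were called higher, and without letter C in all days 17 were.

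**Figure D3:**
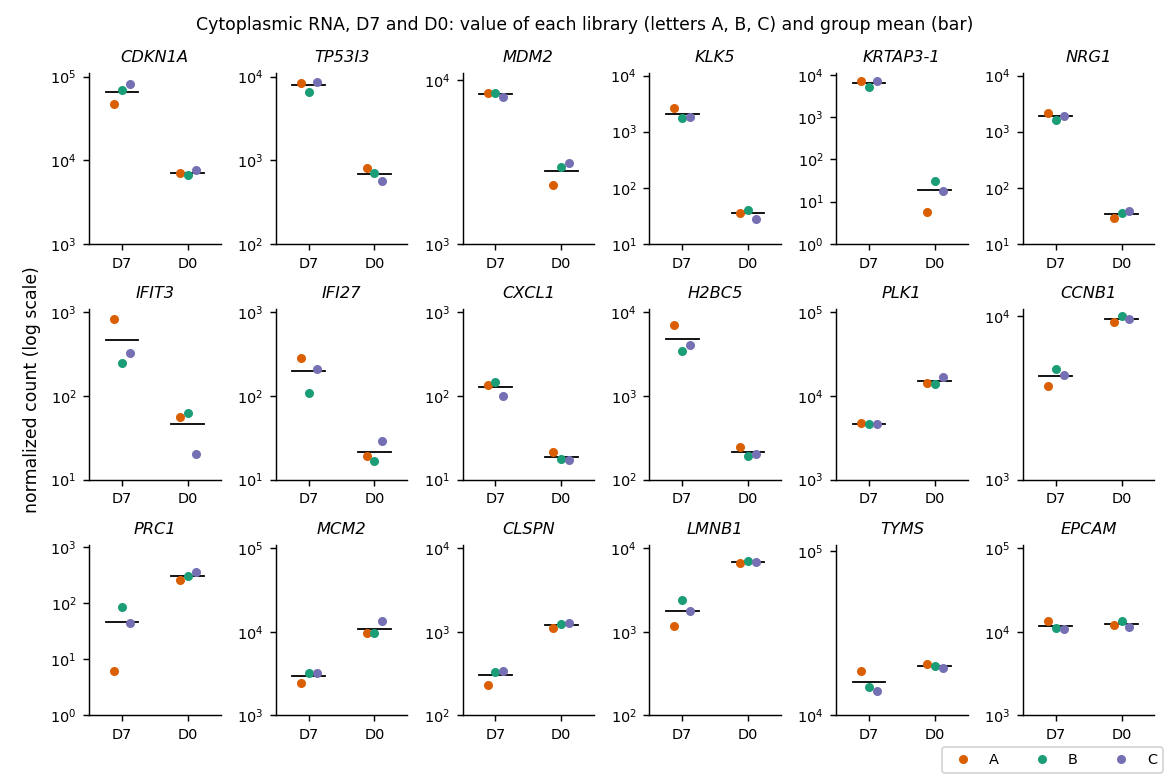
Normalized counts (log axis) of 18 genes in the 3 D7 libraries (left) and 3 D0 libraries (right) of each panel, colored by letter, with the group mean as a bar. In the panels of CDKN1A, KLK5, NRG1, PLK1, MCM2 and LMNB1 the 2 groups do not overlap, EPCAM values overlap, and PRC1 in D7 A lies far below D7 B and D7 C.

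Genes of mitosis were lower at D7. Of 40 mitosis genes, 28 were called lower and 0 higher, with a median of -1.37, against 15.7 percent of all genes called lower. PLK1, a kinase that drives entry into and passage through mitosis (chromosome 16, 23677656 to 23690367, GRCh38), had 4792, 4582 and 4577 normalized counts in D7 A, B and C, against 14140, 14050 and 17070 in D0 A, B and C. The 3 D7 values lay close together and far below D0, and the difference was -1.69 ± 0.20 (SE, limma adjusted p = 1.61e-05). CCNB1, which encodes cyclin B1, the partner of CDK1 in mitosis, had 3715, 4739 and 4379 at D7, against 9196, 9974 and 9587 at D0 (-1.17 ± 0.15, limma adjusted p = 2.28e-05). ESPL1, which encodes separase, the protease that cuts cohesin at anaphase, had 281, 399.8 and 473 at D7, against 1866, 1763 and 2499 at D0. INCENP, a scaffold of the chromosomal passenger complex, fell by 2.36 ± 0.31, and BUB1B, a spindle checkpoint kinase gene, fell by 2.20 ± 0.31. PRC1, which bundles microtubules of the central spindle, had the largest difference of the list at -3.33 ± 0.65, and its values were 6.2, 85.8 and 44.4 at D7, against 261, 307 and 353 at D0. The 6.2 of D7 A stands for 3 reads, and without D7 A the difference was -2.29 (limma adjusted p = 0.00291). MKI67, the proliferation marker Ki-67, had 4283, 1904 and 1401 at D7, against 6238, 6086 and 4584 at D0 (limma adjusted p = 0.0359). Its call was lost when any 1 of D7 B, D7 C and the 3 D0 libraries was left out, with adjusted p up to 0.147 over all alternatives. TOP2A, the topoisomerase that untangles sister chromatids, was called at -1.39 ± 0.43 (limma adjusted p = 0.0206) and was not called without D7 A (-1.17, adjusted p = 0.0915) or without D0 B. CDK1 itself had 3674, 4061 and 3679 at D7, against 4329, 5103 and 4263 at D0. The groups did not overlap, but the difference was not called (-0.26 ± 0.37, limma adjusted p = 0.612).

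Genes of DNA replication were lower as well. Of 39 replication genes, 30 were called lower and 0 higher, with a median of -0.99. MCM2, a subunit of the replicative helicase, had 2423, 3176 and 3191 at D7, against 9643, 9617 and 13380 at D0 (-1.89 ± 0.28, limma adjusted p = 0.000137). MCM6, another subunit of that helicase, had 1321, 1923 and 1707 at D7, against 4994, 5572 and 5512 at D0. CLSPN, which encodes the fork checkpoint adaptor claspin, had 232, 326 and 343 at D7, against 1099, 1223 and 1281 at D0 and the largest fall of the list (-2.01 ± 0.32, limma adjusted p = 0.000194). In each of these 3 genes D7 A was the lowest library and all D7 values lay below all D0 values. UHRF1, which couples DNA methylation to replication, fell by 1.82 ± 0.20, and POLE, the catalytic subunit of the leading strand polymerase, fell by 1.71 ± 0.33. Without D7 A, 26 mitosis and 28 replication genes were called lower, and without letter C 18 and 16 were.

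The promoters of these 2 lists differed in the elements they carry, so the stretches around them are shown for genes named above. RefSeq promoters (GRCh38.p14, 250 bases before to 50 after the gene's start) were matched by symbol for 10735 of the 15891 genes, and both strands were searched. The CHR letters TTTGAA stood in 26 of 35 matched mitosis promoters (74.3 percent), in 0 of 33 replication promoters and in 9.44 percent of all 10735. The E2F letters (TTTGGCGC, TTTCCCGC, TTTCGCGC or TTTGCCGC, which can overlap each other on opposite strands) stood in 3 of 35 mitosis promoters, in 18 of 33 replication promoters (54.5 percent) and in 5.37 percent of all. Among the members called lower at D7, 17 of 25 mitosis promoters held the CHR letters and 14 of 26 replication promoters held the E2F letters. The 70-base stretches run 5′ to 3′ along each gene and end at or before its start, with the matched letters in capitals. The first 3 show CHR letters and the next 3 E2F letters.
PLK1, chr16:23678819-23678888, plus strand: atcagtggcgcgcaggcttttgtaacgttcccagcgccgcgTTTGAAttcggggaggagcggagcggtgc
PRC1, chr15:90994536-90994605, minus strand: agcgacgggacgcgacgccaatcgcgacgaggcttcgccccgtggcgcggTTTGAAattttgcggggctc
ESPL1, chr12:53268229-53268298, plus strand: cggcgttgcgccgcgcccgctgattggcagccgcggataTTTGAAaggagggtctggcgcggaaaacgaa
MCM6, chr2:135876557-135876626, minus strand: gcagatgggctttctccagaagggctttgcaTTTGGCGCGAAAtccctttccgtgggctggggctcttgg
POLE, chr12:132687343-132687412, minus strand: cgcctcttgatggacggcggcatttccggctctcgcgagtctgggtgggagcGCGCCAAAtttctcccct
UHRF1, chr19:4909431-4909500, plus strand: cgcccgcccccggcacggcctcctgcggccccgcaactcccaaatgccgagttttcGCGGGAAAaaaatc
In the 3 mitosis promoters the CHR letters began 29 (PLK1), 20 (PRC1) and 31 (ESPL1) bases before the start. The motifs were chosen after the values were known, and a match is a description of letters and not a shown binding site.

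Regulators upstream of these genes moved unequally. Of 25 listed E2F and G1/S regulators, 10 were called lower and 3 higher, beside 15.7 percent lower and 18.3 percent higher of all genes. Under total-sum scaling 11 were lower and 1 higher, and without letter C in all days 1 was lower and 1 higher. FOXM1, a transcription factor that binds CHR promoters with MYB-MuvB, had 2962, 4029 and 3567 at D7, against 8619, 8621 and 11340 at D0 (-1.44 ± 0.27, limma adjusted p = 0.000835). CDK2, the kinase of cyclins E and A, fell by 1.24 ± 0.16. CCND1, which encodes cyclin D1, had 46000, 51140 and 55910 at D7, against 20320, 21340 and 25110 at D0, and so rose 2.29-fold in contrast to the list's median of -0.76 (limma adjusted p = 7.44e-05).

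Of the 26 genes of thymidylate and fluoropyrimidine metabolism, 10 were called lower and 3 higher, beside 15.7 percent lower and 18.3 percent higher of all genes. TYMS, which encodes thymidylate synthase, the enzyme that the active form of 5-FU binds, had 18780, 14800 and 14180 normalized counts in D7 A, B and C, against 20440, 20090 and 19380 in D0 A, B and C. The groups did not overlap, but the difference of -0.34 ± 0.19 was not called (limma adjusted p = 0.164). Under total-sum scaling it was -0.66 and called (limma adjusted p = 0.00264). RRM2, the regulated subunit of ribonucleotide reductase, had 10070, 13610 and 11990 at D7, against 19580, 22210 and 22830 at D0 (-0.86 ± 0.16, limma adjusted p = 0.000914). SHMT2, which feeds the mitochondrial one-carbon cycle, fell by 1.25 ± 0.26. CDA, cytidine deaminase of pyrimidine salvage, had 12260, 4236 and 4806 at D7, against 1512, 1421 and 1108 at D0, and rose 4.71-fold (limma adjusted p = 0.000136). D7 A was the highest D7 library for CDA, and without it the rise was 1.76 on the log2 scale, against 2.24 with it. SMUG1, a glycosylase that removes uracil and its 5-fluoro form from DNA, had 4620, 2211 and 2556 at D7, against 1395, 1372 and 1405 at D0 (limma adjusted p = 0.00376). The count of 10 lower genes fell to 6 without D7 A, 6 without D0 A, 6 without D0 B and 5 without D0 C. Without letter C in all days 2 of the list were lower and 1 higher.

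Genes of homologous recombination and the Fanconi pathway, which repair forks and crosslinks, were called lower in 15 of 22 cases and higher in 0, with a median of -0.98. BARD1, the partner of BRCA1, had 62.0, 116 and 133 at D7, against 332, 486 and 457 at D0 (-2.08 ± 0.37, limma adjusted p = 0.000605). FANCD2, the protein that marks crosslinks when ubiquitinated, fell by 1.56 ± 0.25. Without D0 B 9 of the 22 were called lower, and without D7 A 11 were. Of 16 mismatch and base excision repair genes, 6 were called lower and 2 higher (PMS2 and POLB), or 5 lower and 0 higher without D7 A, and 1 higher without D0 A or without D0 C. PARP1, the sensor of DNA breaks, had 3407, 5531 and 5556 at D7, against 15670, 16790 and 18160 at D0 (-1.84 ± 0.24, limma adjusted p = 4.3e-05).

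In the list of senescence markers and lamins, 12 of 20 genes were called lower and 4 higher, or 14 lower and 2 higher under total-sum scaling. Of its 5 genes of the nuclear lamina and inner membrane, 4 (LMNB1, LMNB2, LBR and TMPO) were called lower and 1 was not called. LMNB1, which encodes lamin B1, had 1168, 2403 and 1789 at D7, against 6586, 7026 and 6772 at D0 (-1.99 ± 0.23, limma adjusted p = 1.12e-05). LBR, the lamin B receptor of the inner nuclear membrane, had 289, 571 and 417 at D7, against 2468, 2739 and 3017 at D0, the largest fall of the list (-2.73 ± 0.29, limma adjusted p = 5.88e-06). In both genes D7 A was the lowest of the 6 libraries and D7 B the highest D7 library. Without D7 A, the falls were -1.71 and -2.48. TMPO and LMNB2, which encode other proteins of the lamina, fell by 1.79 ± 0.26 and 1.58 ± 0.28. Of 15 listed histone genes, 6 were called higher and 4 lower, or 6 higher and 7 lower under total-sum scaling. H2BC5, a gene of the replication-dependent H2B family, had 7054, 3428 and 4033 at D7, against 249, 189 and 202 at D0, a 21.6-fold rise (limma adjusted p = 4.22e-08). H2AC6, of the H2A family, had 1439, 1903 and 1900 at D7, against 208, 255 and 144 at D0. H2BC21, another H2B gene, had 211, 394 and 390 at D7, against 56.6, 77.4 and 43.2 at D0. Transcripts of such genes mostly end in a stem-loop and lack poly(A), and poly(A) libraries count their polyadenylated forms. Histone genes of one family are alike in sequence, so reads may be shared between copies.

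Interferon-stimulated genes, whose products restrict viruses, were higher in part. Of 27 listed, 15 were called higher and 2 lower, with a median of 0.99, and without D7 A 15 were called higher and 1 lower. IFIT3, which binds foreign RNA with other IFIT proteins, had 839, 246 and 325 normalized counts in D7 A, B and C, against 55.4, 62.7 and 20.1 in D0 A, B and C (3.27 ± 0.45, limma adjusted p = 5.55e-05). IFI27, a mitochondrial interferon-induced protein gene, had 287, 108 and 210.2 at D7, against 19.2, 16.7 and 28.8 at D0, and IFI6, a related gene, had 2503, 1128 and 2005 at D7, against 243, 306 and 187 at D0. ISG15, a ubiquitin-like modifier, had 40930, 15180 and 21390 at D7, against 4371, 3329 and 2837 at D0 (2.78 ± 0.34, limma adjusted p = 1.88e-05). In these 4 genes D7 A was the highest library and all D7 values lay above all D0 values. IFIT2, of the same family as IFIT3, was lowest in D7 A among the D7 libraries, with 49.6, 292 and 242 at D7, against 12.4, 32.4 and 34.5 at D0 (2.61 ± 0.60, limma adjusted p = 0.00361). OAS3, which makes the messenger that activates RNase L, was called lower (-1.03 ± 0.31, limma adjusted p = 0.0177), as was STAT2, a factor of interferon signalling (-0.94 ± 0.32, limma adjusted p = 0.0327). The call of OAS3 was lost without D0 B or D0 C, and that of STAT2 without D7 A, D7 C or any 1 D0 library. Of 20 genes of antigen presentation, 11 were called higher and 2 lower, the 2 being the ER chaperones CALR and PDIA3. Without D7 A 9 genes were called higher, without D0 C 6, without D7 C 6 and without letter C 1. Under total-sum scaling 5 were higher and 3 lower. ERAP2, which trims peptides for MHC class I, had 273, 73.7 and 80.6 at D7, against 19.2, 18.8 and 15.3 at D0 (2.66 ± 0.57, limma adjusted p = 0.00239).

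The interferon genes share a promoter element, and the stretches that hold it are shown for 3 of them. The core of the interferon-stimulated response element, GAAA, 2 bases of any kind and GAAA on either strand, stood in 17 of 21 matched promoters of the list (81 percent), in 9 of the 12 whose genes were called at D7 and in 2.67 percent of all 10735. Capitals mark it below.
IFI27, chr14:94110598-94110667, plus strand: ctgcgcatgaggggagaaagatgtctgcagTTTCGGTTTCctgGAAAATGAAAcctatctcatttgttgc
IFIT3, chr10:89327811-89327880, plus strand: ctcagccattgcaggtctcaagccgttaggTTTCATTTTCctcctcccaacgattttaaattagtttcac
ISG15, chr1:1013354-1013423, plus strand: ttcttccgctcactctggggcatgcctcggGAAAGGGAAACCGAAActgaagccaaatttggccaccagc
IFI27 holds 2 copies on opposite strands and ISG15 holds 2 that overlap. OAS3, which was called lower, also has the letters in its promoter.

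Genes of the NF-kB pathway and of secreted factors were mixed, with 9 of 20 called higher, 2 lower and a median of 0.40. CXCL1, a chemokine for neutrophils, had 134, 147 and 99.3 at D7, against 21.5, 17.8 and 17.3 at D0 (2.68 ± 0.41, limma adjusted p = 0.000161). CXCL8, which encodes interleukin 8, had 292, 261 and 241 at D7, against 37.3, 52.3 and 41.3 at D0 (2.58 ± 0.59, limma adjusted p = 0.00371). BIRC3, an inhibitor of apoptosis in TNF signalling, had 165, 358 and 356 at D7, against 52.0, 43.9 and 41.3 at D0. TNFAIP3, the A20 protein that dampens NF-kB, had 325, 251 and 204 at D7, against 40.7, 76.3 and 96.0 at D0. All 4 were higher in every D7 library than in every D0 library, at low levels. NFKB1, which encodes a subunit of NF-kB itself, had 552, 1007 and 982 at D7, against 2017, 2368 and 2591 at D0, and fell (limma adjusted p = 0.000175). MMP14, a membrane protease, was the other gene called lower, and not without D7 A (-1.26 with all libraries, -0.68 without it, adjusted p = 0.27) or without any 1 D0 library. The letters GGG, 2 bases of any kind and TTTCC on either strand, a form of the NF-kB site, stood in 7 of 15 matched promoters of the list, in 7 of the 9 whose genes were called at D7 (NFKB1 among them) and in 2.08 percent of all 10735. They are in capitals in the promoters of 3 genes that rose.
CXCL1, chr4:73869284-73869353, plus strand: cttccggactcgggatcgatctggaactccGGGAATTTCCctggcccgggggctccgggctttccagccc
TNFAIP3, chr6:137867162-137867231, plus strand: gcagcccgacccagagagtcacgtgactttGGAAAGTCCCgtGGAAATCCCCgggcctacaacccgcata
BIRC3, chr11:102317255-102317324, plus strand: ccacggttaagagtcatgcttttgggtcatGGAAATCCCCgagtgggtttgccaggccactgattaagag
TNFAIP3 holds the letters at 2 places in this stretch.

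Of 27 apoptosis regulators, 10 were called higher and 0 lower, with a median of 0.23, beside 18.3 percent of all genes called higher. Under total-sum scaling 7 were higher, with a median of -0.09, beside 11.9 percent of all genes. Without letter C in all days 6 were higher. The genes that rose most were BIRC3, BBC3, BIK, FAS and BAX, of which BIRC3 is an inhibitor and the others promote cell death. BBC3, FAS and BAX are also counted in the list of p53 targets. FAS, a death receptor and p53 target, had 1488, 1358 and 1106 at D7, against 351, 370.1 and 273 at D0 (1.99 ± 0.43, limma adjusted p = 0.00247). BIK, a BH3-only protein gene, had 5181, 2746 and 3628 at D7, against 929, 825 and 753 at D0 (2.16 ± 0.27, limma adjusted p = 2.28e-05).

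Genes known from squamous and skin epithelium held the largest rises. The list was fixed with earlier results of these data known, so its counts are a description and not an independent test. Of its 47 genes 28 were listed. Among these, 22 were called higher and 0 lower, against 18.3 percent of all genes called higher. Their median of 2.14 was close to that within each letter (2.11, 2.21 and 2.46 in A, B and C). KRTAP3-1, a keratin-associated protein gene of hair (chromosome 17, 41008521 to 41019324, GRCh38), had 7054, 5280 and 7287 normalized counts in D7 A, B and C, against 5.66, 31.4 and 18.2 in D0 A, B and C. Its difference of 8.65 ± 0.44 was the largest of all named genes (limma adjusted p = 3.69e-10). KLK5, a serine protease of the skin barrier (chromosome 19, 50943303 to 50953093, GRCh38), had 2683, 1755 and 1859 at D7, against 36.2, 40.8 and 27.8 at D0 (5.86 ± 0.26, limma adjusted p = 7.94e-11). KRTAP2-3, of the same family as KRTAP3-1, had 26010, 19070 and 26240 at D7, against 459, 448 and 368 at D0. Its copies KRTAP2-1, KRTAP2-2 and KRTAP2-4 are nearly identical, rose by 5.80 to 5.82, and may share reads, so the 4 are uncertain as separate values. LCN2, a secreted iron-siderophore binding protein gene, had 1739, 1109 and 1413 at D7, against 83.7, 57.5 and 56.6 at D0. NECTIN4, an adhesion molecule of epithelia, had 1112, 905 and 1019 at D7, against 33.9, 39.7 and 54.7 at D0 (4.55 ± 0.21, limma adjusted p = 1.18e-10). Of 6 markers that define basal squamous cells, TP63, KRT5, KRT14 and DSG3 were not among the listed genes, while COL17A1, a hemidesmosome collagen, and KRT15 were listed. COL17A1 had 1087, 935 and 1092 at D7, against 47.5, 42.9 and 62.4 at D0, and KRT15 had 3574, 2295 and 2626 at D7, against 640.4, 593 and 602 at D0. Without D7 A, 23 of the 28 were called higher, and without letter C 20 were.

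Keratins of simple epithelia, which HCT116 expresses throughout, were higher too. KRT18 had 327200, 196200 and 229900 at D7, against 66570, 61980 and 63760 at D0 (1.94 ± 0.23, limma adjusted p = 1.75e-05). KRT8, its partner in filaments, had 383500, 317800 and 395300 at D7, against 135500, 123700 and 134500 at D0. KRT19 had 211900, 153000 and 187500 at D7, against 67430, 63260 and 66360 at D0. Each D7 library thus held more of these 3 keratins than each D0 library. Of 26 epithelial junction genes, which include these keratins, 5 were called higher and 5 lower, beside 18.3 percent higher and 15.7 percent lower of all genes, or 3 higher and 5 lower under total-sum scaling. The 5 higher were KRT18, KRT19, KRT8, CLDN4 and CLDN3 and the 5 lower DSC2, DSG2, ESRP1, CDH1 and ST14. The counts fell to 3 higher without D0 B, without D0 C or without D7 C, and to 3 lower without D0 B or without D0 C, while with the letters as a block 10 were lower. Of 17 mesenchymal genes, 7 were called lower and 3 higher, beside 15.7 percent lower and 18.3 percent higher of all genes. Without letter C in all days 2 were lower and 2 higher. TGFBI, a matrix protein induced by TGF-beta, had 124, 78.5 and 61.9 at D7, against 4.53, 5.23 and 12.5 at D0 (3.47 ± 0.43, limma adjusted p = 2.09e-05). ACTA2, smooth muscle actin, had 1712, 948 and 1007 at D7, against 179, 184 and 105 at D0. FN1, fibronectin, fell by 1.87 ± 0.43 (limma adjusted p = 0.00392), and was not called without letter C (limma adjusted p = 0.0704).

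Ligands of ERBB receptors, which signal growth and survival, moved in opposite directions. NRG1, which encodes the ERBB3 and ERBB4 ligand neuregulin 1, had 2136, 1607 and 1881 at D7, against 29.4, 35.5 and 39.3 at D0 (5.71 ± 0.33, limma adjusted p = 3.15e-09). EREG, the EGFR ligand epiregulin, had 1606, 4363 and 3173 at D7, against 10660, 12750 and 14490 at D0 (-2.16 ± 0.40, limma adjusted p = 0.000837). AREG, the neighbouring ligand gene amphiregulin, rose by 0.82 ± 0.20, and was not called under total-sum scaling. Of the list's 23 genes 5 were called higher and 9 lower, with 7 lower without D7 A and 5 lower without D0 C. In the Notch pathway, 3 of 18 genes were called higher and 6 lower, or 3 lower without D7 A. HES1, a repressor that Notch induces, had 5079, 5139 and 5456 at D7, against 1189, 1176 and 940.3 at D0, with the 3 D7 values within a narrow range (2.25 ± 0.19, limma adjusted p = 3.92e-07). HES4, a related repressor, had 6688, 2078 and 2765 at D7, against 1357, 862 and 858 at D0. JAG1, a Notch ligand, fell by 1.39 ± 0.30. Of 19 YAP targets 2 were called lower (AXL and TEAD1) and 1 higher (F3), with 5 lower when the letters were a block, and of 20 Wnt and stem cell genes 4 were lower and 2 higher. Without 1 library the YAP count was 1 (D7 A, D0 B or D0 C) to 4 lower (D7 B), F3 was not called without D7 B or D7 C, and the Wnt count was 1 or 2 lower without D7 A, D7 B or any 1 D0 library. Among all genes 15.7 percent were called lower and 18.3 percent higher.

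Genes of cytosolic ribosomal proteins were higher, but by amounts that differed between letters. Of 80 genes, 55 were called higher and 0 lower, with a median of 1.06 over all letters, 1.71 within letter A, 0.48 within letter B and 0.91 within letter C. Without D7 A 7 of the 80 were called higher, without D0 B 22 and without D0 C 12, while with the letters as a block 73 were. RPL11, a large-subunit protein that also binds MDM2, had 549500, 151600 and 178400 at D7, against 98900, 88000 and 68030 at D0 (1.55 ± 0.40, limma adjusted p = 0.00714). Without D7 A its difference was 0.97 (adjusted p = 0.0356). RPS12, a small-subunit protein, had 384800, 108500 and 135600 at D7, against 73070, 59480 and 51880 at D0, and was not called without D7 A (adjusted p = 0.0825) or without D0 C. RPLP0, of the ribosomal stalk, had 227000, 294800 and 354500 at D7, against 230900, 219600 and 218700 at D0, so D7 A was here the lowest D7 library, and RPLP0 was not called (limma adjusted p = 0.194). Ribosomal protein genes have many processed pseudogene copies, so that reads may have been split. The share of ribosomal protein reads and the level of short transcripts were highest in D7 A, and their part in these calls was not tested. EEF1A1, elongation factor 1 alpha, had 1269000, 939100 and 900900 at D7, against 934800, 919200 and 771900 at D0, and was not called (0.23 ± 0.21, limma adjusted p = 0.401). TPT1, whose mRNA like those of ribosomal proteins begins with a pyrimidine tract, had 911700, 313700 and 297600 at D7, against 177800, 177200 and 139400 at D0 (1.43 ± 0.36, limma adjusted p = 0.00728). In its list of 16 elongation and similar factors, 4 were called higher and 0 lower, beside 18.3 percent of all genes called higher. Under total-sum scaling 2 were higher and 1 lower, beside 11.9 percent of all genes called higher.

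**Figure D4:**
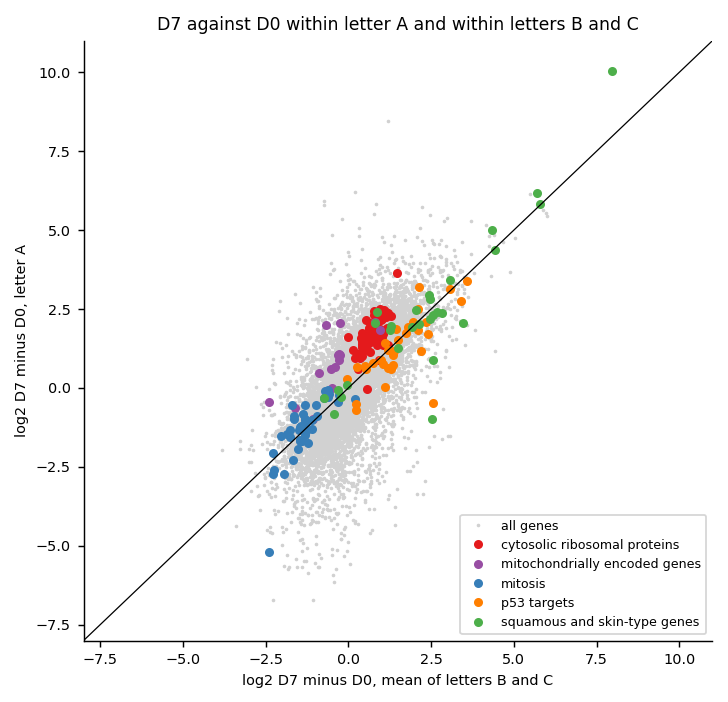
D7 minus D0 difference of log2(value + 1) of each gene within letter A (vertical) against the mean of letters B and C (horizontal), with 5 lists colored and the line of equality in black. Skin-type, p53 and mitosis genes lie along the line for the most part, while most ribosomal protein and mitochondrially encoded genes lie above it (medians 1.71 and 0.88 within letter A).

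Genes that make ribosomes and charge tRNAs were lower or not called in the main. Of 39 ribosome biogenesis genes, 11 were called lower and 1 higher (NOP16, not called without D7 A or any 1 D0 library), with a median of -0.14 and a count of lower calls of 6 or 7 when any 1 of D7 A, D7 B, D7 C, D0 B and D0 C was left out. NAT10, an acetyltransferase of ribosomal RNA, fell by 1.57 ± 0.28 (limma adjusted p = 0.000521). Of 20 cytosolic aminoacyl-tRNA synthetase genes, 10 were called lower and 0 higher. AARS1, the alanine enzyme, had 2547, 3094 and 3421 at D7, against 8815, 9452 and 11740 at D0 (-1.73 ± 0.27, limma adjusted p = 0.000185). Of 30 initiation and mTOR genes, 7 were called lower and 0 higher, and only 3 or 4 when D7 A, D7 C or any 1 D0 library was left out. Of 30 proteasome genes 5 were called lower and 0 higher, close to the 15.7 percent of all genes, and 3 when any 1 of D7 B, D7 C and the 3 D0 libraries was left out.

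Stress response genes were called lower more often than higher. Of 24 ATF4 targets, 11 were called lower and 4 higher, beside 15.7 percent lower and 18.3 percent higher of all genes. Under total-sum scaling 11 were lower and 3 higher. ATF3, a stress-induced transcription factor, had 8354, 11700 and 10410 at D7, against 1425, 1303 and 1124 at D0 (2.98 ± 0.18, limma adjusted p = 6e-09). DDIT3, which encodes CHOP, had 974, 564 and 766 at D7, against 186, 212 and 132 at D0. SLC7A11, the cystine importer, had 211, 167 and 160 at D7, against 799, 1193 and 1420 at D0, the largest fall of the list (-2.63 ± 0.32, limma adjusted p = 2.01e-05). PHGDH, the first enzyme of serine synthesis, had 3452, 3507 and 3616 at D7, against 13760, 13490 and 14060 at D0. TRIB3, a pseudokinase that feeds back on ATF4, fell by 1.72 ± 0.29. Of 20 genes of the unfolded protein response, 10 were called lower and 0 higher. HSPA5, the ER chaperone BiP, had 5216, 5598 and 5303 at D7, against 13850, 15310 and 13090 at D0 (-1.39 ± 0.16, limma adjusted p = 1.3e-05).

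Cholesterol synthesis and uptake genes, which SREBP2 controls, were called lower in 12 of 22 cases and higher in 0, with a median of -0.90. Without D7 A 10 were called lower. The counts of this and the next 3 lists stand beside 15.7 percent lower and 18.3 percent higher of all genes. SQLE, squalene epoxidase, had 446, 815 and 803 at D7, against 2037, 2137 and 2265 at D0 (-1.69 ± 0.22, limma adjusted p = 3.99e-05). CYP51A1, lanosterol demethylase, had 70.3, 60.4 and 53.7 at D7, against 198, 256 and 323 at D0. Among detoxification and efflux genes, 8 of 18 were called lower and 3 higher. Without D7 A 6 were lower and 2 higher, and without letter C in all days 3 were lower and 1 higher. NQO1, a quinone reductase under NRF2, had 14500, 12130 and 12320 at D7, against 29990, 30080 and 28160 at D0 (-1.18 ± 0.17, limma adjusted p = 8.33e-05), and AKR1C3, a ketosteroid reductase, rose by 2.01 ± 0.35. AKR1C3 has near copies in AKR1C1 and AKR1C2, so its reads may be shared. Of 28 glycolysis and hypoxia genes 2 were called higher and 2 lower, or 6 lower with the letters as a block and 8 lower with 1 higher under total-sum scaling. Leaving out 1 library gave 1 or 2 higher and 0 to 4 lower (0 without D0 C, 4 without D7 B), and GAPDH had 677800, 410000 and 460900 at D7, against 446400, 404800 and 413700 at D0 (limma adjusted p = 0.441). Of 33 lysosome and autophagy genes 10 were called higher and 4 lower, but 6 higher and 10 lower under total-sum scaling, and 2 lower without D0 C. Without D7 A 7 were higher and 4 lower.

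Nuclear-encoded subunits of the respiratory chain were called higher in 16 of 39 cases and lower in 3, or higher in 15 and lower in 9 under total-sum scaling. COX6A1, a subunit of complex IV, had 8811, 2470 and 3424 at D7, against 1439, 786 and 879 at D0, with D7 A the highest library. Without D7 A 3 of the 39 were called higher, without D0 B 8 and without D0 C 4. Of 15 mitochondrially encoded genes 3 were called lower (MT-ND6, MT-ND4L and MT-ATP8) and 0 higher, and 1 was called lower without D0 A, without D0 B, without D7 C or with the D7 and D0 libraries alone. The median of the 15 was 0.88 within letter A, -0.26 within letter B and -0.42 within letter C. MT-ND6, the complex I gene of the light strand, had 2780, 873 and 666 at D7, against 3773, 4281 and 3774 at D0 (-1.75 ± 0.40, limma adjusted p = 0.00367). MT-CO2, a complex IV gene, had 985100, 240500 and 238200 at D7, against 229900, 197600 and 94070 at D0, and was not called (limma adjusted p = 0.0646), but was called with the letters as a block (adjusted p = 0.0231), without D7 B (adjusted p = 0.0332) or without D7 C (adjusted p = 0.0395). Mitochondria were pelleted in the preparation, and how much of them stayed in each lysate was not tested.

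Noncoding RNAs that host small nucleolar RNAs were higher. In the list of nuclear-retained and host RNAs, 8 of 15 were called higher and 1 lower, with a median of 1.38. GAS5 had 60860, 18780 and 20490 at D7, against 7478, 7714 and 5784 at D0 (2.04 ± 0.36, limma adjusted p = 0.000482). SNHG5 had 219, 151 and 120.3 at D7, against 31.7, 33.5 and 46.0 at D0. EPB41L4A-AS1 had 16350, 6364 and 6988 at D7, against 1190, 1298 and 1098 at D0. All D7 values exceeded all D0 values in these 3, which are short spliced RNAs known to be decayed in the cytoplasm when translated. NEAT1, the scaffold of nuclear paraspeckles, had 267, 325 and 302 at D7, against 697, 749 and 579.5 at D0 (-1.17 ± 0.27, limma adjusted p = 0.00361). MALAT1, held in nuclear speckles, had 3055, 1640 and 1816 at D7, against 2014, 2166 and 1308 at D0, and was not called (limma adjusted p = 0.736). No source used here gives the strand setting of the counting, so reads of EPB41L4A-AS1 and of overlapping genes cannot be told apart with certainty.

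Outside the lists, some of the largest falls and rises among the called genes that code for proteins and averaged 100 or more normalized counts at D7 or D0 are given here. CSPG4, a surface proteoglycan, had 20.7, 70.1 and 24.5 at D7, against 446, 371 and 536 at D0 (-3.72 ± 0.47, limma adjusted p = 2.78e-05). WDR4, a subunit of a tRNA methyltransferase, had 105, 162 and 109 at D7, against 919, 859 and 952 at D0, with the 3 D7 values close together (-2.88 ± 0.25, limma adjusted p = 4.02e-07). HASPIN, the histone H3 kinase of mitosis, had 6.2, 188 and 164 at D7, against 759, 737 and 1009 at D0, and its fall of -3.77 became -2.23 without D7 A. SGPP1, a sphingosine phosphate phosphatase gene, had 4.13, 233 and 228 at D7, against 536, 482 and 486 at D0, and its fall of -2.95 became -1.12. In HASPIN and SGPP1 the values of D7 A stand for 3 and 2 reads, far below D7 B and D7 C. The call of SGPP1 was lost when any 1 D0 library was left out. Among the rises, LGALS9, which encodes galectin 9, had 391, 337 and 531 at D7, against 29.4, 16.7 and 10.6 at D0. HMCN2, an extracellular matrix gene, had 108, 168 and 156 at D7, against 3.39, 7.32 and 3.84 at D0. PRR15L, a gene with little known of its role, had 149, 146 and 144 at D7, against 4.53, 4.18 and 2.88 at D0. All 3 genes were near the lowest listed levels at D0 and above 100 normalized counts in every D7 library.

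Against D2, the end of the exposure, 3379 genes were called at D7 (21.3 percent), 1507 higher (9.48 percent) and 1872 lower (11.8 percent). Without D7 A 1870 were called, 4.34 percent higher and 7.43 percent lower. Under total-sum scaling 986 were higher and 1868 lower. With the letters as a block 5120 were called. The D7 libraries are the same as in the comparison with D0. Of the 33 p53 targets, 18 were lower at D7 than at D2 and 0 higher. CDKN1A had 46910, 68940 and 82610 normalized counts in D7 A, B and C, against 157900, 186000 and 143300 in D2 A, B and C, and was lower at D7 (-1.33 on the log2 scale, limma adjusted p = 0.000997). GDF15 was lower too (-1.99, limma adjusted p = 6.33e-06), while MDM2 was not called (-0.38, limma adjusted p = 0.386). PLK1 had 4792, 4582 and 4577 at D7, against 1691, 2214 and 1594 at D2, and was higher at D7 by 1.36 (limma adjusted p = 0.000315) and CCNB1 by 0.96 (limma adjusted p = 0.000372), and 7 of 40 mitosis genes were called higher and 1 lower in all. TYMS was higher by 0.80 (limma adjusted p = 0.00675). HES1 was higher by 3.00 (limma adjusted p = 7.28e-08) and NRG1 by 3.57 (limma adjusted p = 7.72e-06). AQP3, a glycerol channel of epithelia, was lower (-3.83, limma adjusted p = 5.49e-09), and so was NGFR, a neurotrophin receptor (-4.29, limma adjusted p = 3.12e-06). At D7 AQP3 had 325, 352 and 306, against 336, 432 and 390.5 at D0, and was not called between these days.

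**Figure D5:**
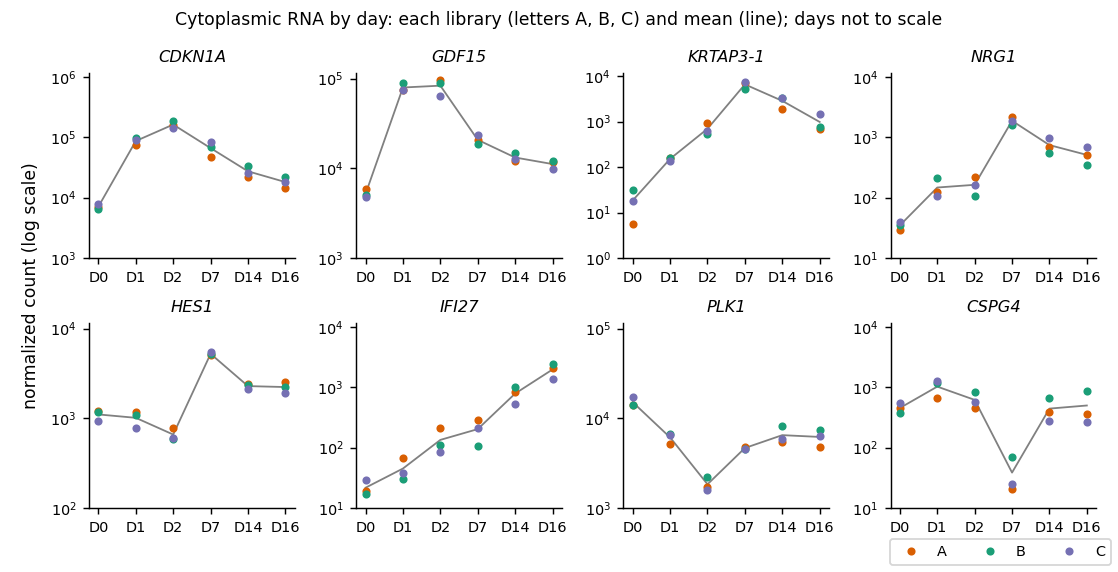
Normalized counts (log axis, days not to scale) of 8 genes in each cytoplasmic library of D0, D1, D2, D7, D14 and D16, colored by letter, with the daily mean as a line. CDKN1A and GDF15 at D7 lie below D2 and above D0, KRTAP3-1, NRG1 and HES1 have their highest mean at D7, IFI27 is higher still at D14, PLK1 is lowest at D2, and CSPG4 is lowest at D7.

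Against D14, the next day sampled, 5655 genes were called at D7 (35.6 percent), 3034 higher (19.1 percent) and 2621 lower (16.5 percent). Without D7 A 3024 were called (19 percent), 9.55 percent higher and 9.48 percent lower. Under total-sum scaling the split turned to 1426 higher and 4575 lower. Ribosomal protein genes were higher at D7 in 68 of 80 cases, respiratory chain genes in 30 of 39 and proteasome genes in 21 of 30. List counts against D14 were not computed without D7 A or under total-sum scaling. Against D0, leaving out D7 A took the ribosomal protein count from 55 to 7 and the respiratory chain count from 16 to 3. Interferon-stimulated genes were lower in 11 of 27 cases and higher in 4. IFI27 had 287, 108 and 210.2 at D7, against 822, 991 and 534 at D14, and was lower at D7 (-2.02, limma adjusted p = 0.0028), while ISG15 was higher by 1.89 (limma adjusted p = 0.0011). Cholesterol genes were lower in 14 of 22 cases and higher in 1. TP53I3 was higher at D7 by 2.74 (limma adjusted p = 1.6e-06) and CDKN1A by 1.26 (limma adjusted p = 0.00123).

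Some genes stood at an extreme at D7, being called in the same direction against D0, D2 and D14. They numbered 518 high (3.26 percent of all genes) and 550 low (3.46 percent), and without D7 A 122 high (0.768 percent) and 258 low (1.62 percent). Under total-sum scaling they numbered 300 high and 664 low. With the letters as a block they numbered 2105 in all, and without D7 B 1692. Of the 28 skin-type genes, 10 were called higher and 10 lower at D7 than at D2, with a median of -0.09, and the list took 0.243, 0.329 and 0.383 percent of reads in D7 A, B and C, against 0.407, 0.454 and 0.434 percent in D2 A, B and C. Of its members KLK5, KLK7, KLK8, KLK10, KRTAP2-3 and KRTAP3-1 were high against all 3 days, as were NRG1, HES1 and H2BC5. Without D7 A, KLK7, KLK8 and KRTAP3-1 were no longer among them. H2BC5 was higher at D7 by 1.84 than at D2 and by 1.73 than at D14 (limma adjusted p = 0.000996 and 0.00128). KRTAP3-1 was higher by 3.27 and 1.24 (limma adjusted p = 0.00014 and 0.0366). RPL36A, a ribosomal protein gene, had 951, 329 and 388 at D7, against 74.7, 124 and 131 at D0, and was high against all 3 days, with D7 A the highest library. CSPG4 was low against all 3 days, with -3.72 against D0, -4.13 against D2 and -3.60 against D14. CALR and PDIA3 were also low against all 3.

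The heavy polysomal pool, mRNA bound by more than 3 ribosomes in the same 6 days, gives another readout of the change. The change from D0 to D7 differed between the heavy pool and the cytoplasm in 627 genes (3.95 percent), being higher in the heavy pool in 119 (0.749 percent) and lower in 508 (3.2 percent), by the interaction term of limma over all 36 libraries. That fit takes the 36 libraries as independent and pools the spread of the heavy pool and the cytoplasm. It does not pair the heavy and cytoplasmic libraries of a letter and day, so its p-values are not those of a paired difference. Without D7 A 248 genes (1.56 percent) were called, 45 higher (0.283 percent) and 203 lower (1.28 percent), and without D7 B 2078 were. With the letters as a block 964 were called. Under total-sum scaling the median of all genes was 0.52, against -0.09 on the authors' scaling, and the split turned to 1403 higher and 186 lower. Mitochondrially encoded genes were lower in 13 of 15 cases and ribosomal protein genes in 24 of 80. The ribosomal protein count was 6 without D7 A, 72 without D7 B and 42 without D7 C, 20 without letter A, 1 without letter B and 0 without letter C, 40 with the letters as a block and 15 under total-sum scaling. MT-ND3, a complex I gene, changed by -3.81 in the heavy pool and by 1.24 in the cytoplasm, a difference of -5.06 ± 0.67 (limma adjusted p = 8.35e-05). MT-CO2 changed by -3.19 in the heavy pool and by 1.24 in the cytoplasm, and MT-ND2, another complex I gene, by -4.25 and by 0.18. These genes are translated inside mitochondria, so polysomes of the cytosol are not where their mRNAs are read. GAS5 rose by 2.04 in the cytoplasm and changed by 0.33 in the heavy pool, a difference of -1.72 (limma adjusted p = 0.0122), which was -1.17 without D7 A (adjusted p = 0.0394). Of the p53, replication, mitosis, interferon and skin-type lists, 1 gene in all, the p53 target FDXR, was called in this interaction (-0.72 ± 0.20, limma adjusted p = 0.041). In the heavy pool, 27 of 33 p53 targets were called higher, 35 of 40 mitosis and 34 of 39 replication genes lower, and 23 of 28 skin-type genes higher at D7 than at D0, against 17.1 percent of all genes called higher, 23 percent lower and 40.1 percent in either direction.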

How the data were processed

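Poly(A) RNA of the cytoplasm and of the heavy polysomal pool was sequenced on 6 days with 3 libraries each, 36 in all. Per the submitters' processing notes, FastQC 0.11.9, cutadapt 3.2, STAR 2.7.9a, featureCounts of Subread 2.0.1 and DESeq2 1.30.1 were used with GRCh38. The strand setting of the counting is not given in the sources used here. The deposited table holds a normalized signal per gene, read counts divided by the authors' DESeq2 size factors, and 18 of its 54 columns are of no sample here and were not used. Its smallest value is 1.004, so genes without reads in a column are not listed. Gene types and positions came from GENCODE release 29 for 15799 of the 15891 identifiers.

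Values were taken as log2(value + 1) and fitted with limma 3.58.1 (R 4.3.3) with a term per group and a trend on the mean level. Contrasts within the cytoplasm were fitted over the 18 cytoplasmic libraries of all days. Contrasts that involve the heavy pool were fitted over all 36 libraries, without pairing the heavy and cytoplasmic libraries of a letter and day. Contrasts were two-sided, p-values were adjusted with Benjamini-Hochberg over all 15891 genes, and an adjusted p under 0.05 was called. Standard errors are those of the fit. The change of the heavy pool against that of the cytoplasm was an interaction contrast. Shares of reads were compared with an exact permutation test over libraries. The fit was tested on simulated data. These had no diverging library and no difference between letters, so the simulation cannot show how such differences affect the calls. Whole reads were recovered from the values (100 percent of values whole within 0.01), which gave depths of 41.03 to 103.63 megareads (median 48.04) in the cytoplasmic libraries. edgeR 4.0.16 and DESeq2 1.42.0 were run as alternatives on the recovered reads of 10 cytoplasmic libraries. D0 C was not among these, so D7 A, B and C were set against D0 A and B. No library of D14 or D16 was among them. The other alternatives were TMM and total-sum scaling, a pseudocount of 10, a filter of at least 10 in 3 libraries, library weights, the letter as a block, the 6 libraries alone, and leaving out each library or letter.

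The labels give the letters as batches, so same-lettered libraries are paired by their labels. Deviations from the group means correlated with a mean r of 0.19 over 45 same-letter pairs of cytoplasmic libraries, and 27 pairs were over 0.1. For D7 and D0 r was 0.25 in letter A, 0.08 in letter B and 0.15 in letter C.

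Named genes were drawn from the 12 largest rises and 12 largest falls that were called, code for proteins, averaged 100 or more at D7 or D0, had groups that did not overlap and kept 1 sign in all letters. At most 5 called genes per list (35 lists), the 6 largest of each sign in the other comparisons and a set of well-known genes were added, and the text names fewer than these. AREG, FDXR, MALAT1, MMP14, NEAT1, NFKB1, OAS3, STAT2 and TRIB3, and genes named without values to account for small counts, lie outside this rule and were chosen after their values were seen. The genes, lists and tests were chosen with earlier results of these data known. Another 5 lists held markers of cell types. Promoters were RefSeq's (GRCh38.p14), 300 bases long. Some genes of these lists are not reported here by name.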

Additional observations from a re-analysis of the deposited data

Results flagged for a closer look

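The genes below are given because the change from D0 to D7 differed between the heavy polysomal pool and the cytoplasm by the interaction term (limma, Benjamini-Hochberg over all genes). The value is the change in the heavy pool minus that in the cytoplasm on the log2 scale, and no cause was tested. Mitochondrially encoded genes had the largest differences. MT-ND3 was at -5.06, MT-CO2 at -4.43 and MT-ND2 at -4.43, and these 3 were called in all 11 alternatives. MT-ATP8 was at -2.98 and lost its call without letter C, and MT-ND4L was at -2.77 and lost it without letter B. The ribosomal protein gene RPL11 was at -1.55 (adjusted p = 0.0344), and at -0.97 without D7 A (adjusted p = 0.132). The elongation factor gene EEF1A1 was at -0.93 (adjusted p = 0.0049), and at -0.32 under total-sum scaling (adjusted p = 0.0702). Among noncoding host RNAs, GAS5 was at -1.72 and EPB41L4A-AS1 at -1.35, and EPB41L4A-AS1 was not called without D7 A (-0.92, adjusted p = 0.198) or under total-sum scaling (adjusted p = 0.0948). HMCN2, a matrix gene, was at -1.84, with changes of 2.83 in the heavy pool and 4.66 in the cytoplasm, and was not called under total-sum scaling (adjusted p = 0.0742). The p53 target FDXR was at -0.72 (adjusted p = 0.041), and was not called without D7 A (adjusted p = 0.111) or under total-sum scaling (-0.11, adjusted p = 0.714). In the other direction, the cholesterol gene CYP51A1 was at 1.82, with changes of -0.22 in the heavy pool and -2.04 in the cytoplasm, and was at 1.92 without D7 A (adjusted p = 0.0194). Each of these genes but MT-ND3, MT-CO2 and MT-ND2 lost its call when letter B or letter C, or in some cases letter A, was left out.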

How the results depend on the processing

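Leaving out 1 library or letter moved the number of genes called at D7 against D0 (5399) to between 1322 (without letter C) and 5770, and the number against D2 (3379) to between 287 and 3834. Against D14 (5655) the range was 1190 to 6029, for genes at an extreme at D7 (1068) it was 33 to 1692, for the interaction with the heavy pool (627) it was 25 to 2078, and for called members of the gene lists (460) it was 179 to 478. Leaving out a letter removes 1 of 3 libraries in every group. With the letters as a block the counts were 6822 against D0, 5120 against D2, 7056 against D14, 2105 at an extreme and 964 in the interaction, and among the named genes the block changed the calls of MT-CO2 and MT-ND3 alone. Library weights, whose estimation did not reach convergence (D7 A had a weight of 0.14), gave 9991 against D0, 10185 against D2, 10537 against D14, 4152 at an extreme and 691 list members. Total-sum scaling gave 1589 in the interaction, with the median of all genes at 0.52. Total-sum scaling without D7 A, chosen after seeing the data, gave 3169 against D0, 1725 against D2, 2913 against D14 and 355 at an extreme. On 10 cytoplasmic libraries, which leave out D0 C, 3157 genes were called by edgeR, 4598 by DESeq2 and 3163 by limma, the last chosen after seeing the data. Of 2420 values of named genes under alternatives 2320 stayed on their side of the threshold, 89 lost the call, 11 gained it and 0 reversed. Of 660 list counts 543 stayed within 1.5 times, and 117 did not. The divergence of D7 A was 0.652 under total-sum scaling, and the difference in the ribosomal protein share was 7.1 percentage points, against 6.5, with mitochondrially encoded genes left out of the total. With 3 libraries a group, 1 of which diverges at D7, small changes and genes at a few reads are the least certain, and the cause of the moved counts was not tested.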
